A study of Homo sapiens with 8 samples.

Results

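The unfolded protein response and the amino acid response were followed through 45 genes that sense, transmit or execute them, in spheroids of a cisplatin-resistant and a parental ovarian carcinoma line. The genes were chosen by name, and each was represented by the probeset with the highest mean among those annotated to that gene alone. Of the 45 genes, 44 were measured in this way out of 18417 genes named on the array. ATF6B was the exception, because both of its probesets are also annotated to TNXB. All 44 passed the filter on low signal, which kept 15931 genes, and no member had a line mean in the lowest quartile of signal. RNA came from 4 arrays of OVCAR-8 spheroids, the parental human ovarian adenocarcinoma line, and 4 arrays of OVCAR-8R spheroids, named OVCAR-8C in the sample labels, a derivative selected by stepwise cisplatin exposure up to 5 μM. Spheroids of both lines were about 300 μm across and were grown in agarose molds in DMEM with serum. Resistance was reported to be stable after cisplatin was withdrawn, and the sources do not say whether OVCAR-8R is a single clone or saw cisplatin shortly before collection. In bulk RNA, fewer cells expressing a gene and less RNA per cell cannot be told apart.

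Both responses begin with protein kinases or membrane sensors. In the endoplasmic reticulum (ER), PERK, IRE1 and ATF6 detect unfolded protein. PERK and the amino acid sensor GCN2 phosphorylate the translation factor eIF2α, which lowers general translation and favours translation of the transcription factor ATF4. IRE1 splices XBP1 mRNA, and ATF6 is cleaved to release a transcription factor. The targets of these factors include ER chaperones, components that return misfolded proteins to the cytosol for degradation, enzymes of amino acid synthesis and tRNA synthetases. These arrays measured mRNA, so that phosphorylation, XBP1 splicing and ATF6 cleavage were not observed.

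Signals are log2 RMA values, where 1 unit is a 2-fold step. Differences are OVCAR-8R minus OVCAR-8 with the standard error from limma, and adjusted p-values are Benjamini-Hochberg values from limma over all probesets kept. A gene was called, and is said to have risen or fallen, at an adjusted p under 0.05 and a difference of at least 2-fold. Arrays of one line correlated at r = 0.983 or more, and arrays of different lines at 0.906 or less. Of 10 epithelial and ovarian carcinoma markers, 6 rose in OVCAR-8R, among them PAX8 (3.77) and KRT7 (4.45), against 8.37% of all genes tested. MUC16 (0.07), KRT19 (0.08), CDH1 (-0.23) and WT1 (-0.86) were not called and had mean log2 signals of 7.05 or less in both lines. WT1 went the other way, at 5.87 to 6.41 in OVCAR-8R and 6.91 to 7.24 in OVCAR-8. The summed linear signal of the 10 markers was 11768 to 12661 in OVCAR-8R and 1957 to 2280 in OVCAR-8. The leukocyte marker PTPRC lay at 3.86 and 3.97, below the lowest quartile limits of 5.11 and 5.16. Of the markers of other cell types, 3 of 4 leukocyte, 0 of 4 endothelial and 1 of 4 plasma cell markers (JCHAIN) lay below these limits in both lines, and none was called. The plasma cell markers, led by SDC1 (8.50 and 7.70), had a summed linear signal of 449 to 510 in OVCAR-8R and 307 to 351 in OVCAR-8, and their part in the results was not tested.

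Among the 44 members, 2 rose and 4 fell in OVCAR-8R spheroids. The transcription factor genes CEBPB and CREB3L1 rose. ERO1B, an ER oxidase, NUPR1, a stress-inducible chromatin protein, PSPH, the last enzyme of serine synthesis, and XBP1 fell. The shares of 4.55% and 9.09% stand beside 8.37% of all genes tested that rose and 8.37% that fell. At an adjusted p under 0.05 and any size, 14 members were higher and 17 lower, 31.8% and 38.6%, against 27.6% and 30.0% of all genes tested. The arrays of the lines did not overlap for 14 members with OVCAR-8R above and 18 with OVCAR-8R below. These were 31.8% and 40.9%, against 27.3% and 29.5% of all genes tested. The median difference was -0.07, with a median size of 0.36, and the same values over all genes tested were -0.01 and 0.34. The share of members that fell was near that of all genes, and the share that rose was below it. At any size and without overlap both shares were above those of all genes, more so for lower members. None of these shares was tested against the background, and the differences ranged from -1.35 to 1.52. The split at any size turned with the scaling, to 16 higher and 13 lower after cyclic loess, where the median was 0.05. The shares after cyclic loess were 36.4% and 29.5%, against 30.2% and 28.5% of all genes tested. ATF5, HERPUD1, HYOU1, PDIA6 and SHMT2 no longer passed there, and ERO1A, HSPA5 and PDIA4 passed as higher. Under limma's treat, whose null is a difference of up to 2-fold, 1 member was higher (CEBPB) and 1 lower (ERO1B), and without OVCAR-8R array 1 the lower count was 2.

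**Figure D1:**
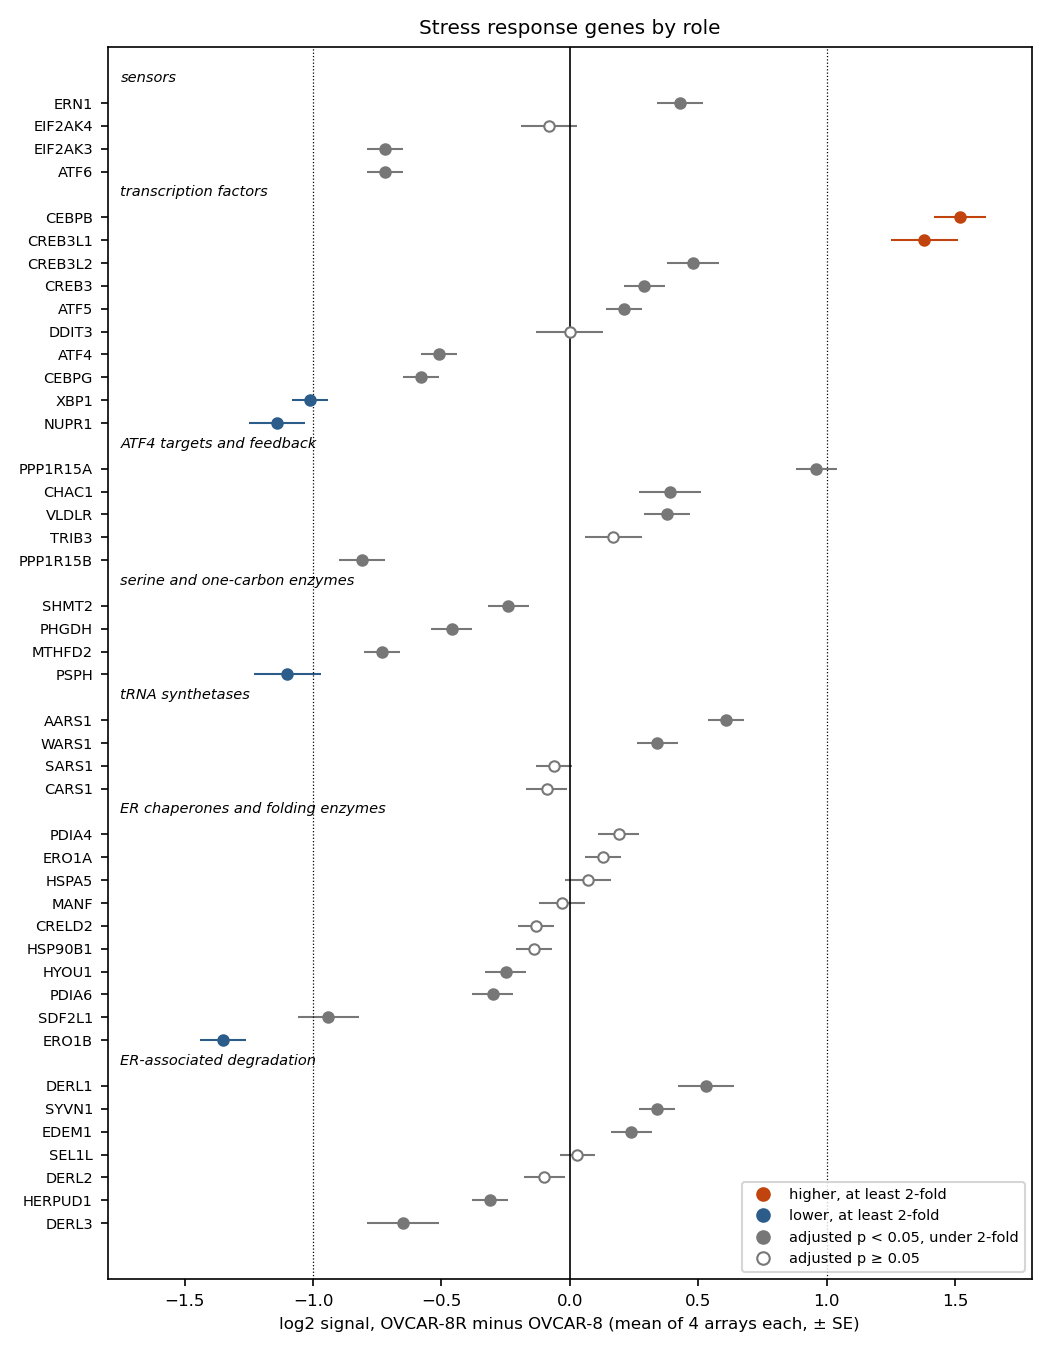
Difference in log2 signal (horizontal axis, OVCAR-8R minus OVCAR-8, 4 arrays each, bars are standard errors) for the 44 members, grouped by role, with dotted lines at 2-fold. CEBPB and CREB3L1 lie beyond the upper line, and ERO1B, NUPR1, PSPH and XBP1 beyond the lower one.

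Promoter elements of both responses are shown first, to set members with a known stress element beside their differences. RefSeq promoter windows (GRCh38.p14, 250 bases before to 50 after the annotated start) were found for 40 of the 45 members, without DERL1, DERL3, NUPR1, PSPH and SHMT2. The ER stress response element ERSE (CCAAT and CCACG separated by 9 bases, bound by NF-Y and by ATF6 or XBP1) was searched on both strands and occurred in 6 members, 15.0%, against 0.0916% of 27305 genes with a window. ERSE-II (ATTGG and CCACG separated by 1 base) occurred in 3 further members, 7.5% against 0.0696% of all genes. The members were chosen by name as genes of these responses, so an excess of any stress element over all genes is no independent result. The following windows show the elements in capitals, with the flanking promoter in lower case, 5′ to 3′ on the strand of the gene. An element that lies on the other strand reads as its reverse complement.
XBP1, chr22:28800591-28800633, minus strand, ERSE: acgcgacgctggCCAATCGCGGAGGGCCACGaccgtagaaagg
HSPA5, chr9:125241379-125241421, minus strand, ERSE: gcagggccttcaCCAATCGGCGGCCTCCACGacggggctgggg
PDIA6, chr2:10812841-10812883, minus strand, ERSE: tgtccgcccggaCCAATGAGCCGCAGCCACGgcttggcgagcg
HSP90B1, chr12:103930204-103930246, plus strand, ERSE: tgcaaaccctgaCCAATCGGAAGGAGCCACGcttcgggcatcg
CRELD2, chr22:49918542-49918584, plus strand, ERSE, other strand: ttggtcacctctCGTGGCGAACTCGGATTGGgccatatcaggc
ERO1B, chr1:236282171-236282208, minus strand, ERSE, other strand: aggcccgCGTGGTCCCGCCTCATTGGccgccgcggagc
SDF2L1, chr22:21642102-21642136, plus strand, ERSE-II, other strand: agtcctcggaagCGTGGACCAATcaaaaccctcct
HERPUD1, chr16:56932013-56932047, plus strand, ERSE-II: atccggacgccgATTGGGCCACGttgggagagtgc
HYOU1, chr11:119057262-119057296, minus strand, ERSE-II, other strand: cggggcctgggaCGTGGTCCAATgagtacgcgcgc

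The 9 members with ERSE or ERSE-II did not share a difference. Of the 9, ERO1B (-1.35) and XBP1 (-1.01) fell, and SDF2L1 had a difference of -0.94. HERPUD1 (-0.31), PDIA6 (-0.30) and HYOU1 (-0.25) were lower at any size, though not after cyclic loess, while HSP90B1 (-0.14), CRELD2 (-0.13) and HSPA5 (0.07) did not pass the test. After cyclic loess HSPA5 passed as higher (0.23, adjusted p = 0.0392). Of the 44 genes with either element in their window, 33 were tested, 2 rose and 3 fell, and at any size 5 were higher and 19 lower (15.2% and 57.6%, against 27.6% and 30.0% of all genes tested), with a median of -0.25. After cyclic loess the 33 genes came to 7 higher and 15 lower, 21.2% and 45.5%, with a median of -0.17. All genes tested then had 30.2% higher and 28.5% lower. Without the members, 24 were tested, with 5 higher and 13 lower at any size and a median of -0.21, and 6 and 12 after cyclic loess. The unfolded protein response element UPRE (TGACGTGG) was found in HYOU1, where it overlaps a second ERSE-II, and after the start of CARS1, in 5.00% of members against 0.927% of all genes. Genes with UPRE in their window numbered 148 tested, with 39 higher and 57 lower at any size and a median of -0.10.

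The C/EBP-ATF response element CARE (TGATGCAA), to which ATF4 binds with a C/EBP partner, occurred in 6 members, 15.0% against 1.08% of all genes. These were AARS1, CARS1, CEBPG, CHAC1, HERPUD1 and PPP1R15B, and 4 windows are shown because their genes moved in opposite directions.
AARS1, chr16:70289674-70289705, minus strand, CARE, other strand: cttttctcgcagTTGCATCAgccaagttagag
CHAC1, chr15:40953250-40953281, plus strand, CARE, other strand: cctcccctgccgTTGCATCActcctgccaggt
CEBPG, chr19:33374059-33374090, plus strand, CARE: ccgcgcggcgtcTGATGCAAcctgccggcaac
PPP1R15B, chr1:204412025-204412056, minus strand, CARE: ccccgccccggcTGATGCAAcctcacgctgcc

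AARS1 (0.61) and CHAC1 (0.39) were higher at any size, and CEBPG (-0.58), PPP1R15B (-0.81) and HERPUD1 (-0.31) lower, whereas CARS1 (-0.09) did not pass. Genes with CARE in their window numbered 110 tested, with 30 higher and 37 lower at any size and a median of 0.00. The shares over all genes tested were 27.6% and 30.0%. A match to these letters is a description of the window, and occupancy by any factor was not measured.

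**Figure D2:**
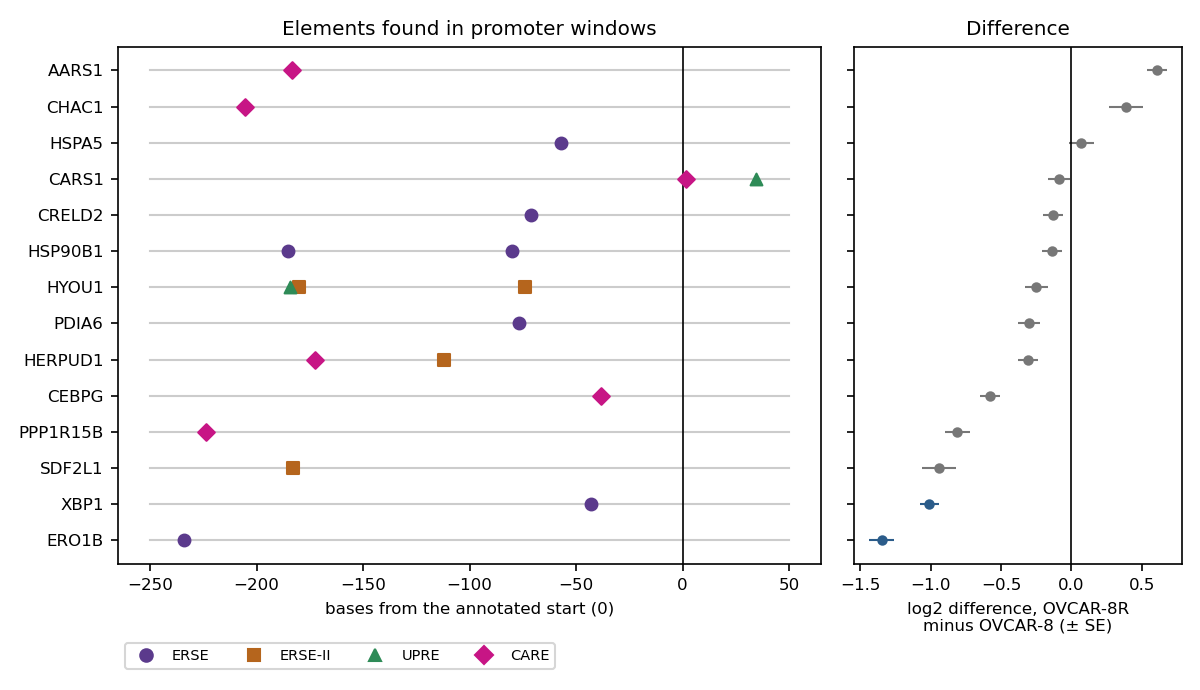
Left, centre of each element found in the promoter windows of 14 members, in bases from the annotated start (0). Right, the log2 difference of the same genes, OVCAR-8R minus OVCAR-8, with standard errors. Genes with ERSE or ERSE-II lie between -1.35 and 0.07, and genes with CARE on both sides of 0.

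Sensor genes differed in direction, and no sensor reached 2-fold by limma or by the methods' t-test. Among all genes tested, 83.3% were not called. EIF2AK3, which encodes PERK, had log2 signals of 8.48, 8.55, 8.37 and 8.57 on the OVCAR-8R arrays and 9.16, 9.17, 9.21 and 9.30 on the OVCAR-8 arrays. Every OVCAR-8R array lay below every OVCAR-8 array, by a mean difference of -0.72 (standard error 0.07, adjusted p = 2.02e-05). ATF6 had signals of 9.96, 10.04, 9.99 and 10.04 in OVCAR-8R and 10.76, 10.81, 10.70 and 10.63 in OVCAR-8, again without overlap (-0.72, standard error 0.07, adjusted p = 1.19e-05). ERN1, which encodes IRE1α, was the sensor with the higher signal in OVCAR-8R, at 7.89, 7.75, 7.83 and 7.84 against 7.45, 7.25, 7.58 and 7.31. Its difference was 0.43 (standard error 0.09, adjusted p = 0.00206). EIF2AK4, which encodes GCN2, had 8.44, 8.74, 8.31 and 8.80 in OVCAR-8R and 8.72, 8.60, 8.67 and 8.62 in OVCAR-8. The OVCAR-8R arrays surrounded the OVCAR-8 arrays, and the difference of -0.08 had a 95% interval from -0.33 to 0.18. The sign turned with the arrays used, at 0.12 with OVCAR-8R arrays 2 and 4 alone. With OVCAR-8R arrays 1 and 3 alone it was -0.28 (limma, adjusted p = 0.0319). ATF6B and TNXB share probesets with signals of 8.91 to 9.19 in OVCAR-8R and 8.02 to 8.41 in OVCAR-8 on the brighter one, which cannot be assigned to either gene.

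Of 10 transcription factor genes, 2 rose, 2 fell and 6 were not called. CEBPB, a C/EBP factor of stress and inflammatory responses, had signals of 10.18, 10.39, 9.92 and 10.35 in OVCAR-8R and 8.72, 8.74, 8.62 and 8.70 in OVCAR-8. The lines were far apart, with the OVCAR-8R arrays spread more widely (SD 0.21 against 0.05), and CEBPB rose by 1.52 (standard error 0.10, adjusted p = 1.34e-06), a 2.86-fold difference. CREB3L1, an ER-membrane factor that is cleaved in the Golgi and drives secretory and collagen genes, had 7.77, 8.20, 7.83 and 8.20 in OVCAR-8R and 6.86, 6.54, 6.66 and 6.44 in OVCAR-8. It rose by 1.38 (standard error 0.13, adjusted p = 1.16e-05), a 2.6-fold difference whose adjusted p with treat was 0.102. Its relatives CREB3L2 and CREB3 had smaller differences of 0.48 and 0.29, both higher at any size.

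XBP1 lay at 10.51, 10.62, 10.50 and 10.60 in OVCAR-8R and 11.63, 11.49, 11.58 and 11.58 in OVCAR-8. The gap between the lines was wide compared with the spread within them, and XBP1 fell by 1.01 log2 units (standard error 0.07, adjusted p = 1.16e-06). This size sits at the 2-fold threshold. It was -0.99 without OVCAR-8R array 1, without OVCAR-8R array 3 or without OVCAR-8 array 1, and -0.88 after cyclic loess, and in each of these cases the gene was not called although it stayed lower. The spliced and unspliced mRNAs are not separated by this probeset. NUPR1 had 7.36, 7.61, 7.47 and 7.29 in OVCAR-8R and 8.73, 8.63, 8.30 and 8.62 in OVCAR-8, and fell by 1.14 log2 units (standard error 0.11, adjusted p = 1.34e-05).

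ATF4, the central factor of the amino acid response, had 11.19, 11.16, 11.28 and 11.29 in OVCAR-8R and 11.73, 11.77, 11.77 and 11.68 in OVCAR-8. All OVCAR-8R arrays lay below all OVCAR-8 arrays, at a difference of -0.51 (standard error 0.07, adjusted p = 1.18e-04), and a second ATF4 probeset gave -0.91 (standard error 0.07). Both probesets were lower, but they disagreed in size. DDIT3, which encodes the pro-apoptotic factor CHOP, had 9.41, 9.68, 9.49 and 9.63 in OVCAR-8R and 9.62, 9.86, 9.25 and 9.48 in OVCAR-8. The arrays overlapped, with the widest spread in OVCAR-8 (SD 0.26), and the difference of 0.00 had a 95% interval from -0.29 to 0.29. CEBPG, a dimer partner of ATF4, was lower at any size (-0.58) and ATF5 had a difference of 0.21 whose adjusted p of 0.0349 was lost in 10 of 18 alternatives that keep this threshold (0.052 to 0.102).

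**Figure D3:**
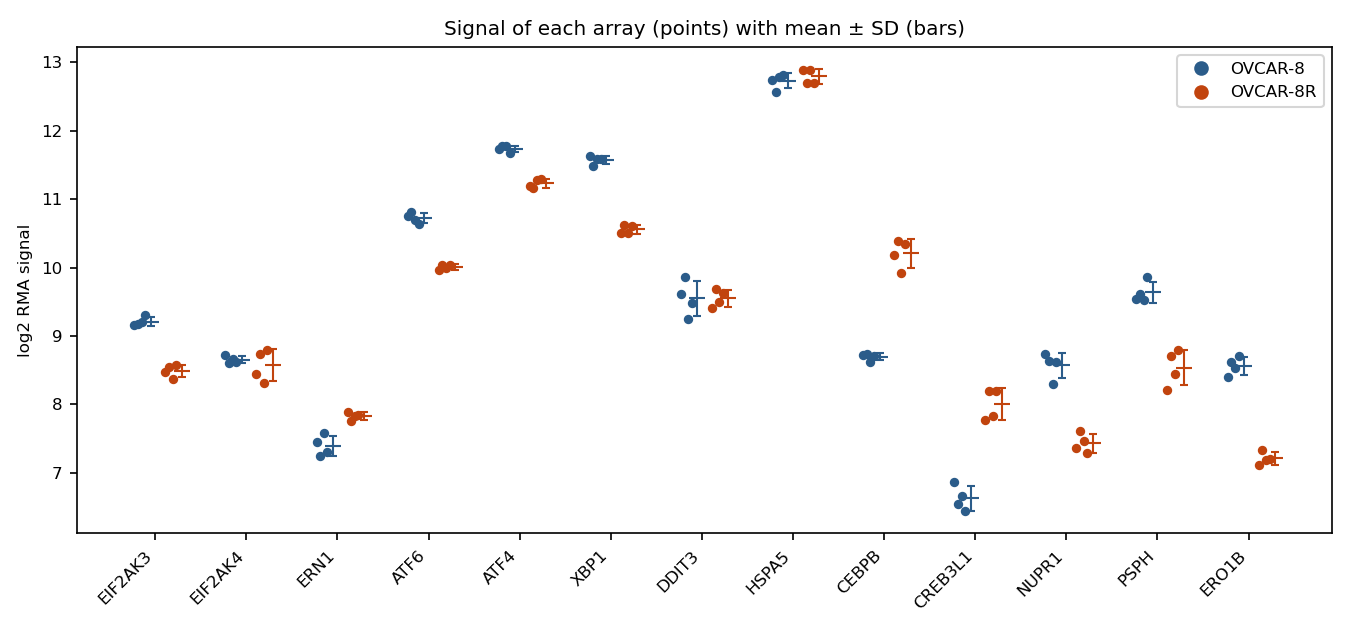
Log2 RMA signal (vertical axis) of each array as a point, with mean ± SD beside it, for the called members, 4 sensors, ATF4, DDIT3 and HSPA5. The lines are fully separated for 10 of the 13 genes and overlap for EIF2AK4, DDIT3 and HSPA5. The 10 include all called members, for which separation is no independent result. Over all genes tested, 27.3% were separated with OVCAR-8R above and 29.5% with OVCAR-8R below. Signals of different genes are not comparable.

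Of 5 genes grouped as ATF4 targets and feedback, 3 were higher at any size, 1 was lower and 1 did not pass. The lower gene was PPP1R15B, and the other genes of the group had positive differences. All genes tested had 27.6% higher and 30.0% lower at any size. PPP1R15A, which encodes GADD34, the stress-induced subunit that directs eIF2α dephosphorylation, had signals of 10.06, 10.14, 10.14 and 10.16 in OVCAR-8R and 9.33, 9.0, 9.11 and 9.22 in OVCAR-8. Its difference of 0.96 (standard error 0.08, adjusted p = 6.77e-06) was just under 2-fold, and it passed the threshold after cyclic loess (1.06) and without OVCAR-8 array 1 (1.02). PPP1R15B, the constitutive subunit CReP, lay at 9.12, 9.18, 9.03 and 9.16 in OVCAR-8R and at 10.05, 9.72, 9.99 and 9.97 in OVCAR-8. The 2 phosphatase subunits thus lay on opposite sides, with PPP1R15B at -0.81 (standard error 0.09, adjusted p = 2.67e-05). CHAC1, a glutathione-degrading enzyme, had a difference of 0.39 (adjusted p = 0.0249) with overlapping arrays, lost in 7 of 18 alternatives (0.0612 to 0.188), and the lipoprotein receptor gene VLDLR was higher by 0.38. TRIB3, a pseudokinase that restrains ATF4, had a difference of 0.17 (95% interval from -0.08 to 0.41).

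All 4 enzymes of serine synthesis and mitochondrial folate metabolism were lower in OVCAR-8R at any size, beside 30.0% of all genes tested. For SHMT2 this was lost in 9 of 18 alternatives (adjusted p from 0.0536 to 0.233). PSPH had 8.21, 8.70, 8.45 and 8.79 in OVCAR-8R and 9.54, 9.62, 9.52 and 9.86 in OVCAR-8, and fell by 1.1 (standard error 0.13, adjusted p = 7.22e-05). A second PSPH probeset also gave -1.1, and both may share signal with near-identical copies of the gene. Without OVCAR-8R array 1, which held the lowest PSPH signal, the difference was -0.99 and the gene was not called. MTHFD2, a mitochondrial one-carbon enzyme, had a difference of -0.73 (standard error 0.07, adjusted p = 1.19e-05), PHGDH, the first enzyme of serine synthesis, one of -0.46 (adjusted p = 5.92e-04) and SHMT2, which cleaves serine in mitochondria, one of -0.24 (adjusted p = 0.024). The OVCAR-8R arrays of SHMT2 overlapped the OVCAR-8 arrays, with array 2 of OVCAR-8R at 11.24 and array 2 of OVCAR-8 at 11.22.

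Of the 4 tRNA synthetase members 2 were higher at any size, beside 27.6% of all genes tested, and 2 did not pass. AARS1, which charges alanine tRNA, had 11.08, 11.06, 11.07 and 10.99 in OVCAR-8R and 10.55, 10.33, 10.46 and 10.44 in OVCAR-8, a difference of 0.61 (standard error 0.07, adjusted p = 4.81e-05). WARS1, the tryptophan enzyme that interferon also induces, was higher at any size by 0.34 (adjusted p = 0.00578). SARS1 and CARS1, for serine and cysteine, had differences of -0.06 (95% interval from -0.21 to 0.09) and -0.09 (-0.28 to 0.10), and their arrays overlapped.

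The ER chaperones themselves showed small differences. Of 10 chaperone and folding enzyme genes, 1 fell (10.0%, against 8.37% of all genes tested) and 9 were not called. At any size 4 were lower (ERO1B, SDF2L1, PDIA6 and HYOU1), and 0 higher, with 1 higher at an unadjusted p under 0.05 (PDIA4). After cyclic loess 2 were lower (ERO1B and SDF2L1) and 3 higher, which were PDIA4 (0.32, adjusted p = 0.00684), ERO1A (0.26, adjusted p = 0.0191) and HSPA5 (0.23, adjusted p = 0.0392). All genes tested had 30.0% lower and 27.6% higher at any size, and 28.5% and 30.2% after cyclic loess. HSPA5, which encodes the main ER chaperone BiP, had 12.89, 12.70, 12.88 and 12.70 in OVCAR-8R and 12.74, 12.57, 12.79 and 12.81 in OVCAR-8. The arrays overlapped, and the difference of 0.07 had a 95% interval from -0.12 to 0.26. HSP90B1 (GRP94), CRELD2, MANF and ERO1A had differences between -0.14 and 0.13 that did not pass, and PDIA4, a disulfide isomerase, one of 0.19 (adjusted p = 0.0616). HYOU1, the nucleotide exchange factor of BiP, and PDIA6 had the differences of -0.25 and -0.30 given above, and HYOU1 did not pass in 6 of 18 alternatives (adjusted p from 0.0666 to 0.176).

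ERO1B and SDF2L1 stood out from the other folding genes. ERO1B, an oxidase that restores the disulfides of PDI, had 7.12, 7.34, 7.19 and 7.20 in OVCAR-8R and 8.40, 8.62, 8.53 and 8.71 in OVCAR-8. It fell by 1.35 log2 units (standard error 0.09, adjusted p = 9.02e-07), the only member besides CEBPB that was called with treat. SDF2L1, a partner of the BiP cochaperone ERdj3, had 7.46, 7.13, 7.59 and 7.22 in OVCAR-8R and 8.35, 8.43, 8.12 and 8.24 in OVCAR-8. Its difference was -0.94 (standard error 0.12, adjusted p = 8.09e-05), just under 2-fold, and without OVCAR-8R array 3 it was -1.02 and passed.

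Genes of ER-associated degradation, which carries misfolded proteins to the proteasome, stayed under 2-fold by limma and by the methods' t-test, with 3 higher and 2 lower at any size. All genes tested had 27.6% higher and 30.0% lower at any size, and 83.3% were not called. DERL1, a membrane channel component, had 11.26, 11.55, 11.28 and 11.67 in OVCAR-8R and 10.95, 10.75, 10.99 and 10.95 in OVCAR-8, a difference of 0.53 (standard error 0.11, adjusted p = 0.00219). SYVN1, the ubiquitin ligase HRD1, and EDEM1, a lectin-like mannosidase, were higher by 0.34 and 0.24, EDEM1 not in 4 of 18 alternatives (adjusted p from 0.0546 to 0.139). DERL3 had 7.68, 7.04, 7.45 and 7.11 in OVCAR-8R and 7.90, 7.95, 7.87 and 8.16 in OVCAR-8, a difference of -0.65 (standard error 0.14, adjusted p = 0.0035), and HERPUD1, a scaffold of the ligase, one of -0.31 that did not pass after cyclic loess (adjusted p = 0.064). SEL1L, the adaptor of SYVN1, and DERL2 had differences of 0.03 and -0.10, with overlapping arrays.

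Relatives within a gene family were then compared in 12 pairs, chosen after the values were seen, by the log2 ratio of the pair on each array. A factor common to a whole array cancels in this ratio, while a rescaling that varies with signal does not. Because the pairs were chosen with the values known, the ratios are a description, and no p-value is given. The CEBPB to CEBPG ratio was higher in OVCAR-8R by 2.09 (standard error 0.15), the PPP1R15A to PPP1R15B ratio by 1.77 (standard error 0.05) and the ERO1A to ERO1B ratio by 1.48 (standard error 0.11). DERL1 against DERL3 differed by 1.18 (standard error 0.26), CREB3L1 against CREB3L2 by 0.89 (standard error 0.10) and EIF2AK3 against EIF2AK4 by -0.64 (standard error 0.09). CREB3 against CREB3L2 had the smallest of the 12 differences, at -0.20 (standard error 0.08).

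Within OVCAR-8R the 4 arrays split into pairs. Arrays 1 and 3 deviated from the mean of the line together over all probesets kept by the filter (r = 0.427), as did arrays 2 and 4 (r = 0.484). Among all genes tested, arrays 1 and 3 both lay above arrays 2 and 4 for 33.8%, and both below for another 33.8%. In 9 of the 10 chaperone and folding genes arrays 1 and 3 were above, with ERO1B the other way. MANF, a secreted ER stress protein, had 10.52, 10.23, 10.53 and 10.25 on arrays 1 to 4, a step larger than its difference between the lines (-0.03). In 5 of 10 transcription factor genes arrays 1 and 3 were below, among them CEBPB, CREB3L1 and XBP1. Over all members the shares were 38.6% above and 34.1% below, near those of all genes. The labels give no batch, and what separates the arrays was not tested. With arrays 2 and 4 alone to represent OVCAR-8R, XBP1 (-0.96) and PSPH (-0.89) were not called and SDF2L1 was (-1.11).

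**Figure D4:**
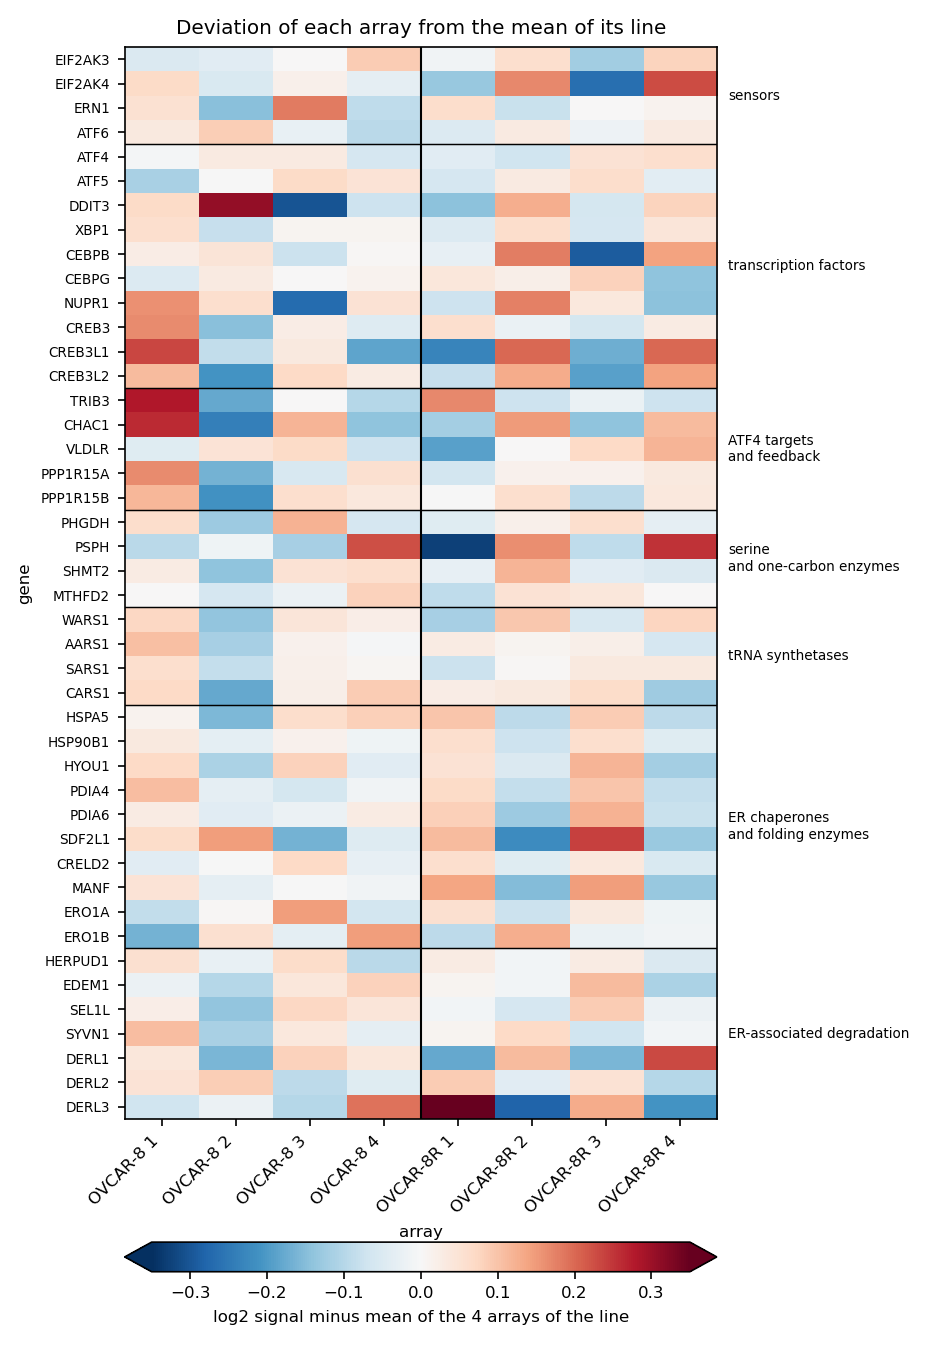
Deviation of each array (columns) from the mean of its own line in log2 signal, for the 44 members (rows) grouped by role. Arrays 1 and 3 of OVCAR-8R are above arrays 2 and 4 in 9 of 10 chaperone and folding genes.

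Other genes of the 2 responses, from lists that are not part of the 45, were counted in the same way. Of 62 tested genes of ER protein folding, translocation, glycosylation and degradation, 4 fell and 58 were not called, and by limma and by the methods' t-test 0 rose at 2-fold, with 5 higher at an unadjusted p under 0.05. MBTPS2, the protease that releases ATF6, fell by 1.68 (standard error 0.10), from 9.72 ± 0.17 (SD, n = 4) to 8.04 ± 0.09 (SD, n = 4). DNAJB9, an IRE1-XBP1 target and cochaperone of BiP (-1.53, standard error 0.11), EDEM3 (-1.47, standard error 0.09) and the translocon-associated gene SSR4 (-1.42, standard error 0.09) fell as well. At 2-fold 0.00% rose and 6.45% fell, against 8.37% and 8.37% of all genes tested. At any size 5 were higher and 30 lower, 8.06% and 48.4%, against 27.6% and 30.0% of all genes tested, with a median of -0.19. After cyclic loess 14 were higher and 26 lower, 22.6% and 41.9%, against 30.2% and 28.5% of all genes tested, with a median of -0.08.

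Among 58 tested genes of ATF4 and amino acid metabolism, 1 rose, 10 fell and 47 were not called. The shares of 1.72% and 17.2% stand beside 8.37% of all genes tested that rose and 8.37% that fell. CTH, which makes cysteine from cystathionine, fell by 1.84 (standard error 0.12), from 10.92 ± 0.08 (SD, n = 4) to 9.08 ± 0.25 (SD, n = 4). The stress factor ATF3 (-1.79, standard error 0.13), OMA1, a mitochondrial protease that relays stress to the eIF2α kinases (-1.57, standard error 0.07), and ASNS, asparagine synthetase and a classical ATF4 target (-1.45, standard error 0.07), fell as well. VARS1, the valine tRNA synthetase, rose by 1.0 (standard error 0.07), a call at the threshold that ended with median centring and without OVCAR-8R array 3, OVCAR-8 array 2 or OVCAR-8 array 4. Of 15 tRNA synthetases outside the members, 1 rose and 3 fell (KARS1 -1.27, EPRS1 -1.11 and YARS1 -1.09). At any size 2 of them were higher (VARS1 and QARS1), 11 lower and 2 did not pass. Beside them stand 8.37% of all genes tested that rose, 8.37% that fell, and 27.6% higher and 30.0% lower at any size. These synthetases were not planned as a group. Over the whole list, at any size 11 were higher and 33 lower, 19.0% and 56.9%, with a median of -0.35, against 27.6% higher, 30.0% lower and a median of -0.01 over all genes tested.

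**Figure D5:**
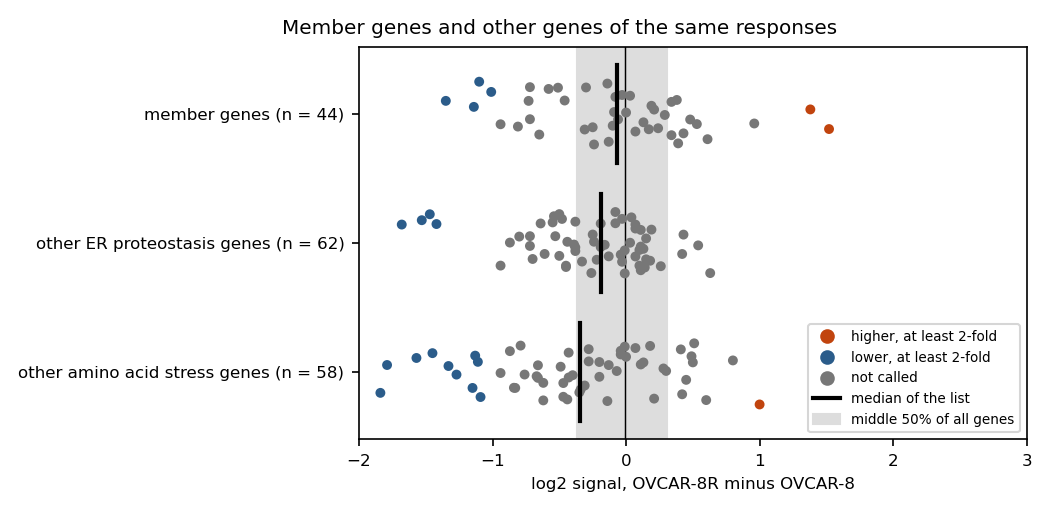
Difference in log2 signal (horizontal axis, OVCAR-8R minus OVCAR-8) of each gene as a point, for the 44 members, 62 other ER genes and 58 other amino acid stress genes. Black bars are list medians (-0.07, -0.19 and -0.35), the grey band holds the middle 50% of all genes tested (-0.37 to 0.31), and vertical scatter within a list carries no value.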

How the data were processed

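Total RNA from OVCAR-8 and OVCAR-8R spheroids, 4 arrays each, had been hybridized to Affymetrix Human Gene 1.0 ST arrays. The deposited values are linear RMA intensity values per probeset, which the authors computed in Affymetrix Expression Console. RMA quantile-normalizes arrays, so an overall shift between lines is not visible. The plan assumed log2 signal, and log2 of the deposited intensity was taken. Of 33297 probesets, 19460 are annotated to 1 gene and 1754 to several, and 12083 carry no name here. Gene identifiers were matched to RefSeq (GRCh38.p14), with 19429 matches.

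Following the methods, a probeset was dropped where its mean fell in the lowest 25% of each line (25628 kept). limma (version 3.58.1, R version 4.3.3) was used with lmFit and eBayes, without a replicate block. The script was tested on simulated data. The array number limits the precision. The titles call the arrays biological replicates, without the step at which they were separated, so p-values cover only the spread between these arrays.

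The members and the lists of other genes were chosen with earlier results of these data known. All members are named, with array values for called members, EIF2AK3, EIF2AK4, ERN1, ATF6, ATF4, XBP1, DDIT3 and HSPA5. Array values of further members were given after they were seen. Of each other list, up to 4 called genes per direction with the largest differences are named. Alternatives covered filters, tests, rescaling, thresholds, probeset means, each array left out and a replicate block. List counts at any size after cyclic loess, and OVCAR-8R arrays 1 and 3 or 2 and 4 alone, were added after seeing the data, and KARS1, EPRS1, YARS1 and QARS1 were named after their values were seen.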

Additional observations from a re-analysis of the deposited data

Results flagged for a closer look

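In 2 of 88 sets of 4 arrays of one line, 1 array lay far from the other 3 by Dixon's 95% criterion, and chance gives about 1 in 20 such sets. Both concern SHMT2. OVCAR-8R array 2 had a log2 signal of 11.24, against 11.07 to 11.09 on the other OVCAR-8R arrays, and OVCAR-8 array 2 had 11.22, against 11.39 to 11.42 on the other OVCAR-8 arrays.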

How the results depend on the processing

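The 2 higher and 4 lower members were also called without a filter, with a stricter filter, with the methods' t-test, with an intensity trend, with median centring, with a gene's probesets averaged and at an adjusted p under 0.01. With treat, 1 member was higher and 1 lower, 0 and 5 amino acid stress genes outside the members, and at 1.5-fold the members came to 4 and 10, the other ER genes to 1 and 12 and the other amino acid stress genes to 3 and 21. Leaving out 1 array at a time gave 2 to 3 higher and 2 to 4 lower members, and 0 to 1 higher genes of the other amino acid list. VARS1, the 1 higher gene of that list, was also lost (0) with median centring and with OVCAR-8R arrays 2 and 4 only, an alternative chosen after the data were seen. A replicate block gave 2 higher and 4 lower members, and 12 and 16 at any size. Same-numbered arrays did not pair throughout, with deviations correlating at 0.165, -0.323, -0.0515 and 0.443 for numbers 1 to 4. The value for number 4 was close to the 0.427 between OVCAR-8R arrays 1 and 3. No called member changed sign. HSP90B1, MANF, DERL2 and SARS1, none of them called, had small differences of the other sign after cyclic loess, which moved the median of all genes from -0.01 to 0.02. EIF2AK4, HSPA5, MANF and SEL1L, also not called, changed sign in some of the alternatives with fewer arrays.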
